A study of Rattus norvegicus with 19 samples.

Results

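The strain by nucleus interaction asks, for each transcript, whether the difference between spontaneously hypertensive rats (SHR) and normotensive Wistar-Kyoto rats (WKY) was the same in the supraoptic nucleus (SON) as in the paraventricular nucleus (PVN) of the hypothalamus. It was taken as the log2 difference SHR minus WKY in the SON minus the log2 difference SHR minus WKY in the PVN. A negative value therefore means that the transcript stood lower in SHR relative to WKY in the SON than it did in the PVN, and a positive value the reverse. All 31042 probe sets other than the array's 57 controls were included, of 31099 probe sets in all, and all 19 arrays entered the contrast. A probe set is a group of oligonucleotides on the Affymetrix rat expression array designed for a transcript, and some bind several.

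The groups were PVN of WKY (5 arrays), PVN of SHR (5 arrays), SON of WKY (5 arrays) and SON of SHR (4 arrays). All came from untreated rats labelled as 12 weeks old, of which the study's methods state that they were male, and the strains are inbred lines that differ at many loci, so strain and blood pressure cannot be told apart. The study describes pooled nuclei, read here as a pool behind each array, so the p-values measure the spread between pools and not between rats. A further SHR SON array that the study counts was not analysed here.

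Signals are given on the log2 scale after each array was scaled to a common median. A floor of 1.91 (a signal of 3.77, the 10th percentile) replaced lower signals, and between 8.33% and 10.6% of the probe sets of an array lay there. The hormone genes of magnocellular neurones were strong in all groups, with mean log2 signals of vasopressin (Avp) between 12.03 and 12.38. Crh, the gene of corticotropin-releasing hormone, was a clear mark of the PVN, at 9.14 and 8.75 in the PVN of WKY and SHR against 5.08 and 4.08 in the SON. The arrays that correlated least with their own group were array 4 of the SHR PVN (mean correlation 0.947) and array 3 of the WKY SON (0.929), and 0 pairs of arrays were identical. In bulk tissue, fewer cells of a type and less RNA per cell cannot be told apart.

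The PVN and the SON both hold magnocellular neurones, which send vasopressin and oxytocin to the posterior pituitary. The PVN also holds parvocellular neurones that release corticotropin-releasing hormone and other peptides at the median eminence, and neurones that project to the autonomic centres of the brainstem and spinal cord. It borders the third ventricle with its ciliated ependymal lining, whereas the SON lies at the ventral surface of the brain above the optic tract, close to the meninges.

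In most transcripts the strain difference did not differ detectably between the nuclei. Of 31042 probe sets, 11 (0.0354%) passed the test of the interaction (limma, Benjamini-Hochberg adjusted p under 0.05), of which 2 (0.00644%) had a positive and 9 (0.029%) a negative interaction. Of the 11, 10 (0.0322%) were at least 2-fold. The named genes among them were Trim30d, Vwa3a, Ucn, Trim14, Bcl2l15, Cidea, Tpd52l1 and Cbr3, and all 8 had negative interactions. The other 3 probe sets have no single gene symbol. Without adjustment 2024 probe sets (6.52%) had a p under 0.05, 857 positive (2.76%) and 1167 negative (3.76%). The median interaction over all probe sets was -0.01, with quartiles at -0.21 and 0.19, and the median standard error was 0.26.

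Set side by side, strain differences passed the test at 401 probe sets in the PVN (1.29%) and at 657 in the SON (2.12%). Both nuclei passed at 212 probe sets, and 210 of these had the same sign. At the 189 probe sets that passed only in the PVN the sign was the same in the SON for 79.9%, and only 3 of them passed the test of the interaction. At the 445 that passed only in the SON the sign was the same in the PVN for 86.1%, and 6 of them passed the test of the interaction. A difference called in 1 nucleus and missed in the other was thus in most cases not a difference that the interaction test could separate from the other nucleus. Among the probe sets called in the PVN, the median ratio of the SON difference to the PVN difference was 0.782, and among those called in the SON, the median ratio of the PVN difference to the SON difference was 0.493. Each ratio rests on probe sets that were chosen on the nucleus in its denominator, so the ratios are a description only. Over all 31042 probe sets the differences of the PVN and the SON had a Pearson correlation of 0.227 and a Spearman correlation of 0.177, a description across probe sets, which are not independent replicates.

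**Figure D1:**
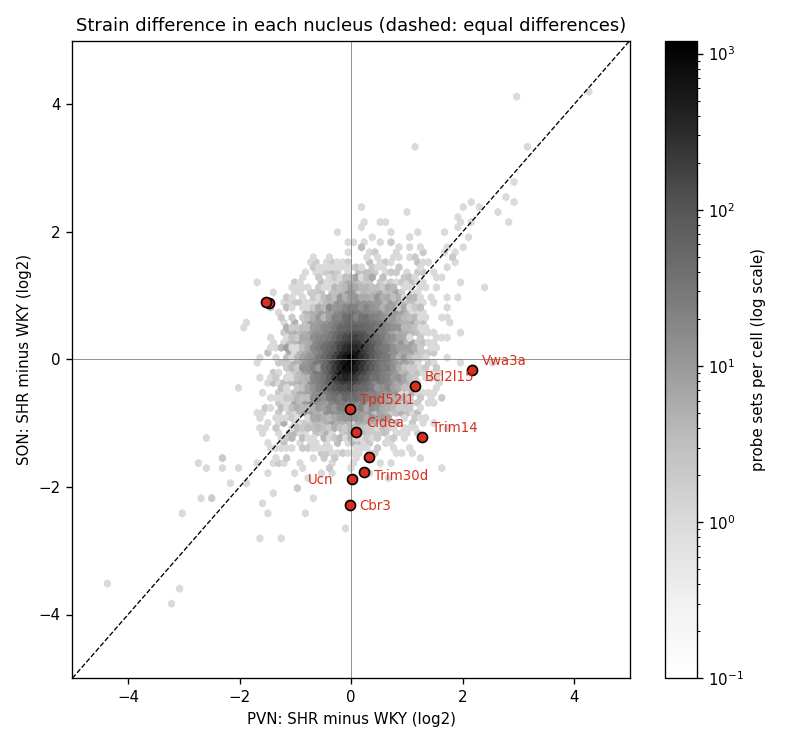
Log2 difference SHR minus WKY in the PVN (horizontal) and in the SON (vertical) for all 31042 probe sets, shown as a density, with the 11 probe sets that passed the interaction test as points and the 8 with a single gene symbol labelled. The dashed line marks equal differences, and 9 of the 11 points lie below it.

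The promoters of the 3 named genes with the smallest adjusted p are shown because these genes carry the clearest dependence on the nucleus. Each runs 5′ to 3′ from 250 bases before to 50 bases after the transcription start, in RefSeq's annotation of the rat assembly GRCr8. Of the 8 named genes, 7 had such a promoter in the reference, and Trim14 did not. Capitals mark a match to 1 of 4 motifs, searched on both strands after the sequences had been read: the cAMP response element TGACGTCA, the TATA box TATAAA, the core of the interferon-stimulated element, GAAA followed after any 2 bases by GAAA, and the X-box of regulatory factor X.
Trim30d promoter (GRCr8, chr1:168215141-168215440, minus strand): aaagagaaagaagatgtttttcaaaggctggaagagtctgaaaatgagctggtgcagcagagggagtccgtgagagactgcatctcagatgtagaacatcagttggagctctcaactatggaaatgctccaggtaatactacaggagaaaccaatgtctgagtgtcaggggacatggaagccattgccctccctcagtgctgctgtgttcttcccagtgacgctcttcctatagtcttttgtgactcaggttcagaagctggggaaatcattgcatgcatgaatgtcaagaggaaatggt
Vwa3a promoter (GRCr8, chr1:184724920-184725219, plus strand): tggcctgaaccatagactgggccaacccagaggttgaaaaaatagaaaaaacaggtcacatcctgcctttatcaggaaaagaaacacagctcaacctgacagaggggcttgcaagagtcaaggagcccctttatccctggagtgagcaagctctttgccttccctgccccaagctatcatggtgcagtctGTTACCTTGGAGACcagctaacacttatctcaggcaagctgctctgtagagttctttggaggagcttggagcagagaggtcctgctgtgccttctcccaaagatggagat
Ucn promoter (GRCr8, chr6:30957836-30958135, plus strand): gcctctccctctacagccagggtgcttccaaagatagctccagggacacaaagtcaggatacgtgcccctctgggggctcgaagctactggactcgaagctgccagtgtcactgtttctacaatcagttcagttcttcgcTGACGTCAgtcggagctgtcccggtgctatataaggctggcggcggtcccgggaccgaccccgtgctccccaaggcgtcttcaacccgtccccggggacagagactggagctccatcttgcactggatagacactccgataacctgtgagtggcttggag
The Ucn promoter held TGACGTCA at position -110 from the start, a motif present in 612 of 33469 promoters of this length (1.83%). The Vwa3a promoter held the X-box at position -60 from the start, present in 427 of 33469 (1.28%). The Trim30d window held 0 of the 4 motifs, of which TATAAA was present in 14.2% of promoters and the interferon-stimulated core in 3.92%. From its first base, most of this window reads in triplets without a stop codon, as coding sequence does. Whether it lies before the true start of Trim30d was not tested, so the lack of motifs says nothing about that gene's promoter. A match is a description of the letters and not a bound site.

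Trim30d and Ucn were high in the SON of WKY alone. Trim30d encodes a tripartite motif protein of a family that takes part in innate immune signalling. Its log2 signals in the SON of WKY were 7.11, 7.45, 6.96, 7.50 and 7.64, and those in the SON of SHR were 5.71, 5.48, 5.57 and 5.52. In the PVN the WKY arrays had 4.94, 4.91, 4.94, 4.80 and 5.18 and the SHR arrays had 5.36, 4.95, 5.19, 5.29 and 5.11. The strains did not overlap in the SON, where every SHR array lay more than 1 log2 unit below every WKY array, whereas they overlapped in the PVN. Trim30d was 3.40-fold lower in SHR in the SON (log2 difference -1.76, adjusted p = 6.31e-07, limma), while in the PVN the difference was 0.23 (adjusted p = 0.562). The interaction was -1.99 (standard error 0.18, 95% interval -2.37 to -1.61, adjusted p = 1.14e-04), and it passed in all 33 alternative settings, with values between -2.08 and -1.64.

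Ucn encodes urocortin, a peptide of the corticotropin-releasing hormone family that binds both receptors of that family. In the SON its log2 signals were 7.34, 7.26, 7.15, 7.58 and 7.53 in WKY and 5.14, 5.39, 5.58 and 5.89 in SHR. In the PVN they were 4.72, 4.85, 5.02, 4.43 and 4.38 in WKY and 4.68, 4.55, 4.40, 4.82 and 4.99 in SHR. All 5 WKY SON arrays lay above all 4 SHR SON arrays, and the PVN arrays of both strains lay below every SON array. Ucn was 3.66-fold lower in SHR in the SON (log2 difference -1.87, adjusted p = 5.43e-06, limma), against a difference of 0.01 in the PVN. Its interaction was -1.88 (standard error 0.23, 95% interval -2.37 to -1.39, adjusted p = 0.00354), and it passed in 31 of 33 settings. The absence of a PVN difference holds for these arrays only. By RT-qPCR in separate adult samples and by staining of the peptide, the study reports Ucn lower in SHR in the PVN too.

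Vwa3a and Bcl2l15 showed the other pattern, a higher level in SHR in the PVN alone. Vwa3a encodes a protein with a von Willebrand factor type A domain. In the PVN its log2 signals were 4.02, 4.32, 3.96, 4.13 and 3.94 in WKY and 5.66, 6.63, 6.05, 6.62 and 6.27 in SHR. In the SON they were 3.57, 3.71, 4.31, 3.73 and 4.11 in WKY and 3.75, 3.67, 3.78 and 3.70 in SHR. Every SHR PVN array stood above all other arrays. Vwa3a was 4.51-fold higher in SHR in the PVN (log2 difference 2.17, adjusted p = 3.09e-06, limma), against -0.16 in the SON. The interaction was -2.34 (standard error 0.27, 95% interval -2.91 to -1.76, adjusted p = 0.00239). The marker list of ependymal and ciliated cells, of which 10 of 19 names were measured, had a median strain difference of 0.23 in the PVN and -0.06 in the SON. Its mean log2 level per array was 7.85 to 8.21 in WKY and 8.16 to 8.56 in SHR in the PVN, and 4.42 to 4.86 and 4.51 to 4.79 in the SON. Its part in the Vwa3a value was not tested.

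Bcl2l15, a member of the Bcl-2 family, had PVN signals of 5.10, 5.08, 5.10, 5.28 and 5.09 in WKY and 6.55, 6.39, 6.12, 5.95 and 6.38 in SHR. Its SON signals were 4.57, 4.31, 4.33, 3.66 and 4.36 in WKY and 3.56, 3.82, 4.01 and 3.91 in SHR. The strains were apart in the PVN and overlapped in the SON through WKY array 4. Bcl2l15 was 2.22-fold higher in SHR in the PVN (log2 difference 1.15, adjusted p = 6.57e-04, limma), and the SON difference was -0.42 (adjusted p = 0.27). The interaction of -1.57 (standard error 0.23, adjusted p = 0.0174) missed the threshold without PVN WKY array 1 (adjusted p = 0.0506) and without SON SHR array 1 (adjusted p = 0.0551).

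Cidea and Tpd52l1 were, like Ucn, lower in SHR in the SON and did not pass in the PVN. Cidea encodes a protein of lipid droplets. Its SON signals were 8.0, 8.16, 7.58, 7.99 and 7.55 in WKY and 6.59, 6.75, 6.61 and 6.92 in SHR, and its PVN signals lay between 5.97 and 6.56 in both strains. Tpd52l1 encodes a coiled-coil protein of the tumour protein D52 family. Its SON signals were 9.13, 9.17, 8.99, 9.32 and 8.93 in WKY and 8.31, 8.29, 8.26 and 8.45 in SHR, and its PVN signals lay between 7.84 and 8.18. For both genes the strains did not overlap in the SON and overlapped in the PVN. Cidea had log2 differences of -1.14 in the SON and 0.09 in the PVN and an interaction of -1.23 (standard error 0.18, adjusted p = 0.0174, limma), which missed the threshold without SON SHR array 1 or array 3. Tpd52l1 had differences of -0.78 and -0.01, and its interaction of -0.77 (standard error 0.12, adjusted p = 0.019) was the smallest of those that passed. Tpd52l1 was also the only one among the strongest 10% of probe sets by signal. It passed in 25 of 33 settings and missed the threshold without PVN WKY array 1, PVN SHR array 3 or SON SHR array 1, 2 or 3.

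Trim14 and Cbr3 rested on signals near the floor. Trim14 encodes a tripartite motif protein that takes part in antiviral signalling. In the PVN its signals were 2.00, 1.91, 2.82, 1.91 and 1.91 in WKY, 3 of them at the floor, and 3.18, 3.57, 3.12, 3.56 and 3.51 in SHR. In the SON they were 3.52, 3.22, 3.60, 3.31 and 4.10 in WKY and 1.91, 2.42, 1.91 and 3.07 in SHR, 2 of them at the floor. Trim14 was the only named gene whose strain difference passed in both nuclei with opposite signs, at 1.28 in the PVN (adjusted p = 0.00905) and -1.22 in the SON (adjusted p = 0.0143, limma), and the strains did not overlap in either nucleus. The interaction of -2.50 (standard error 0.34, adjusted p = 0.00895) became -0.26 (adjusted p = 0.838) when the floor was set at the 20th percentile, and the gene's other probe set had -0.51 (standard error 0.37, adjusted p = 0.843). Cbr3, a carbonyl reductase, was at the floor on 4 of 5 WKY and 5 of 5 SHR arrays of the PVN and on 3 of 4 SHR arrays of the SON, while the SON of WKY had 4.45, 2.91, 4.68, 4.82 and 4.56. Its SON difference of -2.29 (adjusted p = 1.09e-04) is therefore a lower limit of the fall, a difference in the PVN could not be measured, and the interaction of -2.26 (standard error 0.37, adjusted p = 0.0339) passed in only 7 of 31 settings and was -0.96 with the floor at the 20th percentile.

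The 3 probe sets without a single symbol included both positive interactions. Probe set 1392302_at had a difference of -1.48 in the PVN and 0.89 in the SON (interaction 2.36, standard error 0.31, adjusted p = 0.00502, limma), with 3 of 5 SHR PVN arrays at the floor. Probe set 1397923_at had -1.53 and 0.90 (interaction 2.43, standard error 0.40, adjusted p = 0.0361), with 4 of 5 SHR PVN arrays at the floor, and it passed in 9 of 31 settings. With the floor at the 20th percentile the interactions of this pair were 0.26 and 0.33. Probe set 1396246_at was lower in SHR in the SON, at 2.65, 3.32, 3.11 and 2.73 against 3.93, 4.63, 4.75, 4.38 and 4.74 in WKY, against a difference of 0.33 in the PVN. Its interaction of -1.87 (standard error 0.28, adjusted p = 0.0176) passed in 24 of 31 settings, was -0.88 on the log2(value + 16) scale, and missed the threshold without PVN WKY array 1 or SON SHR array 1.

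**Figure D2:**
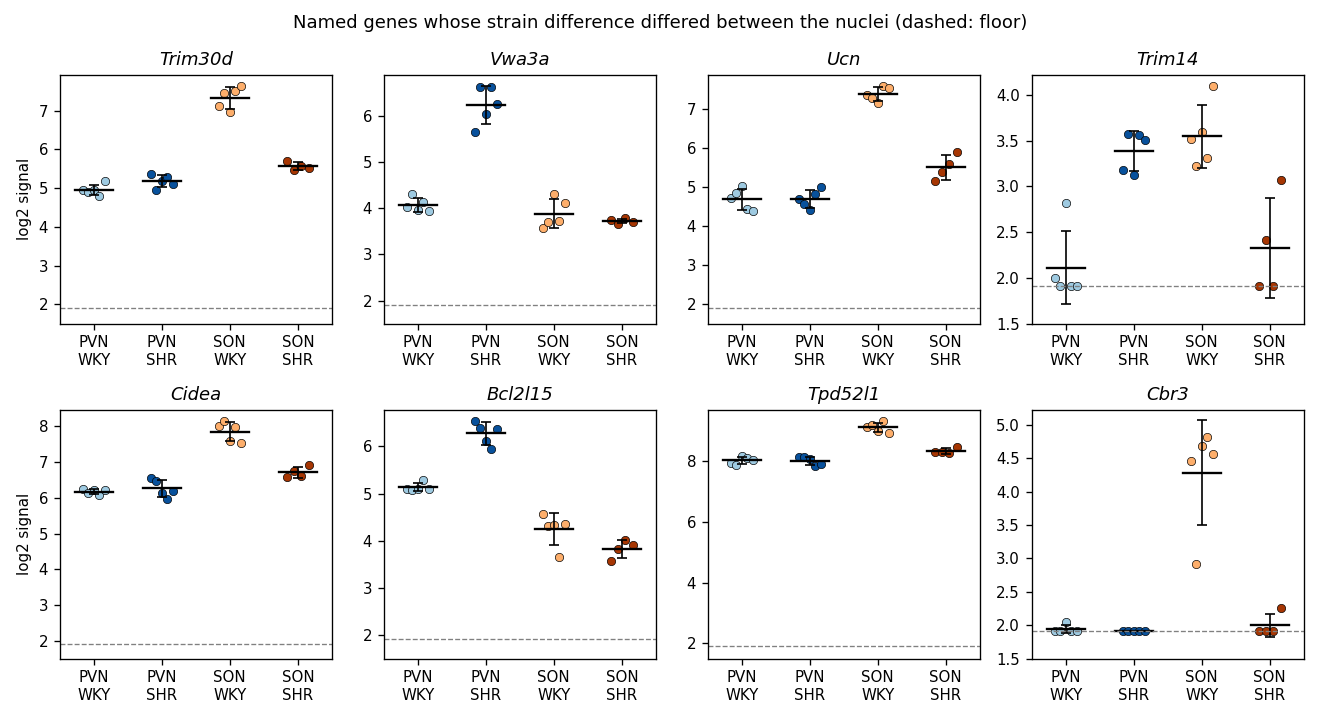
Log2 signal of each array for the 8 named genes that passed the interaction test, by nucleus and strain, with 1 point per array (5, 5, 5 and 4) and a line at the group mean, and the floor of 1.91 dashed. Trim30d and Ucn stand apart in the SON of WKY, Vwa3a in the PVN of SHR, and Cbr3 lies at or near the floor outside the SON of WKY.

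Just outside the threshold, also with negative interactions, lay 4 further genes. Nmb, the gene of neuromedin B, had SON signals of 6.94, 7.29, 7.0, 7.42 and 7.50 in WKY and 6.34, 6.12, 6.0 and 6.31 in SHR, and PVN signals between 5.48 and 5.95. It was 2.06-fold lower in SHR in the SON, with no overlap (log2 difference -1.04, adjusted p = 1.19e-04, limma), and had -0.06 in the PVN, so it had the same form as Ucn, but its interaction of -0.98 (standard error 0.17) had an adjusted p of 0.0516. Ecel1, an endopeptidase-like gene of neurones, had mean signals of 7.01 and 6.89 in the PVN and 7.90 and 6.97 in the SON of WKY and SHR. Its interaction was -0.80 (standard error 0.15, adjusted p = 0.0884). For Furin, a proprotein convertase, and Gpr83, a G protein-coupled receptor, the signs of the differences were opposite in the nuclei. Furin had 0.38 in the PVN (adjusted p = 0.0881) and -0.46 in the SON (adjusted p = 0.0285), an interaction of -0.84 (standard error 0.15, adjusted p = 0.0518). Gpr83 had 0.56 (adjusted p = 0.0187) and -0.40 (adjusted p = 0.105), an interaction of -0.96 (standard error 0.16, adjusted p = 0.0516). None of these 4 passed, although each did in some settings, Nmb in 11 of 33.

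With a positive interaction no probe set with a gene symbol passed, and the 12 named genes with the smallest p are given as values. Bdh2, a cytosolic dehydrogenase of hydroxybutyrate, came nearest. Its PVN signals were 6.39, 5.79, 6.79, 6.13 and 6.43 in WKY and 5.74, 5.17, 5.25, 4.79 and 5.15 in SHR, and its SON signals were 5.74, 5.36, 5.65, 5.71 and 5.99 in WKY and 6.13, 6.02, 6.04 and 6.08 in SHR. The strains did not overlap in either nucleus, and the order was opposite, with a difference of -1.09 in the PVN (adjusted p = 0.00289, limma) and 0.38 in the SON (adjusted p = 0.387). The interaction was 1.47 (standard error 0.26, adjusted p = 0.0543), and it passed in 9 of 32 settings. Ptpn22, a tyrosine phosphatase of lymphocytes, had -1.34 in the PVN (adjusted p = 4.12e-05) and -0.29 in the SON, an interaction of 1.05 (adjusted p = 0.126), and its other probe set was at the floor on every array. Ckmt2, a mitochondrial creatine kinase of muscle, had 2.51 (adjusted p = 0.126), with 3 SHR PVN arrays at the floor.

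Crabp2, which carries retinoic acid and is a gene of the meninges, had mean signals of 5.26 ± 0.26 (SD, n = 5) and 5.03 ± 0.09 (SD, n = 5) in the PVN and 7.06 ± 0.28 (SD, n = 5) and 8.10 ± 0.47 (SD, n = 4) in the SON of WKY and SHR. It was 2.06-fold higher in SHR in the SON (adjusted p = 0.00594, limma) with -0.23 in the PVN, and its interaction of 1.27 (standard error 0.26) had an adjusted p of 0.144 and passed in 3 of 33 settings. The remaining 8 genes had adjusted p-values between 0.225 and 0.344. They were Bin1 (0.62), Tfpi (0.78), the lectin gene Lgals1 (1.04), RT1-DMb of class II antigen presentation (0.48), Igf1 (1.20), the intermediate filament gene Prph (0.70), the potassium channel subunit Kcnab3 (1.46) and the lysozyme gene Lyz2 (0.73), each value being the log2 interaction. Prph passed in 2 of 33 settings and Lgals1 and Igf1 in 1 each. The other 2 probe sets of Igf1 had 1.86 and 1.73, also without passing, and the other one of Tfpi had 0.25.

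The hormone genes themselves and the genes that the study followed up did not pass, other than Ucn. Avp had log2 signals of 12.33 ± 0.14 (SD, n = 5) and 12.03 ± 0.19 (SD, n = 5) in the PVN and 12.38 ± 0.40 (SD, n = 5) and 12.27 ± 0.15 (SD, n = 4) in the SON of WKY and SHR. Its interaction was 0.18 (95% interval -0.31 to 0.67, adjusted p = 0.914, limma), and its sign turned under quantile normalization. Oxt had 0.22 (95% interval -0.29 to 0.74, adjusted p = 0.896). These intervals do not exclude a change of up to 0.67 for Avp and 0.74 for Oxt. Crh was lower in SHR in the SON, where its signal was low (log2 difference -0.99, adjusted p = 7.57e-04), and had -0.40 in the PVN (adjusted p = 0.229), and the interaction of -0.60 (95% interval -1.01 to -0.19) had an adjusted p of 0.569.

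Ephx2, the soluble epoxide hydrolase, which turns fatty acid epoxides into diols, was higher in SHR in both nuclei, 7.40-fold in the PVN (adjusted p = 4.66e-04, limma) and 5.60-fold in the SON (adjusted p = 0.003). Its interaction was -0.40 (95% interval -1.60 to 0.79, adjusted p = 0.921), and without PVN WKY array 3, which lay at the floor, it was 0.10. The probe sets of Agtrap, whose product binds the angiotensin II type 1 receptor, differed. Probe set 1382272_at was higher in SHR in both nuclei (2.68 and 2.34, interaction -0.34, adjusted p = 0.894), and probe set 1375566_at had 0.44 in the PVN (adjusted p = 0.698) and 1.70 in the SON (adjusted p = 0.00977) with an interaction of 1.26 (standard error 0.45, adjusted p = 0.618). The interactions of Enpep, an aminopeptidase that cleaves angiotensin II, of the natriuretic peptide receptor Npr3, of the PI3-kinase subunit Pik3r1 and of the tropomyosin Tpm2 were 0.56, 0.65, 0.30 and 0.51, with adjusted p-values of 0.894, 0.8, 0.839 and 0.887. Npr3 was at the floor on all PVN arrays and Tpm2 on all PVN arrays of WKY. The other probe sets had -0.31 for Enpep and -1.27 for Tpm2.

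Gene families were described over 55 lists, in which the probe set of highest mean signal was taken for each gene. Over all 14217 genes 7 passed (0.0492%), 384 had a positive interaction with an unadjusted p under 0.05 (2.7%) and 548 a negative one (3.85%), and the median was -0.02, from medians of -0.02 in the PVN and -0.04 in the SON. Ucn and Trim30d were the only list members that passed. The strain difference itself passed for 70 genes higher (0.492%) and 102 lower (0.717%) in SHR in the PVN, and for 99 higher (0.696%) and 242 lower (1.7%) in the SON. The medians given next are log2 interactions over the measured genes of a list, with no test. Beside the counts of positive members, 46.9% of all probe sets had a positive interaction. By bin of expression level, described below, that share lay between 32.2% and 53.4%.

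The highest medians belonged to the mural, meningeal, microglial and oligodendrocyte lists, and not to all non-neuronal cell types. Of the markers of mural and smooth muscle cells, which wrap blood vessels, 14 of 15 were positive (median 0.43), 3 of them at an unadjusted p under 0.05. The strongest by signal were Tpm1 (0.73), Mylk (0.42), Myl9 (0.63) and Myh11 (0.43), and in the PVN of WKY Tagln and Tpm2 were at the floor on all arrays. The value of Mylk came from differences of -0.35 in the PVN and 0.07 in the SON. Other members lay near 0 or below it: Rgs5, next by signal, had 0.05, and Pdgfrb, Cspg4 and Notch3 had 0.03, 0.07 and -0.17. Of the markers of meningeal fibroblasts and their matrix, 27 of 30 were positive (median 0.36), and 7 had an unadjusted p under 0.05, all positive, against 2.7% of all genes. These 7 were Lum and Ogn, small leucine-rich proteoglycans, Omd, Mgp, fibronectin Fn1, Crabp2 and the transporter Slc47a1, at 0.82, 0.67, 0.48, 0.95, 0.79, 1.27 and 2.17, chosen after their values were seen. None of them passed after adjustment.

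The meningeal median was made of 0.38 in the SON and 0.00 in the PVN, and the arrays of the SON were uneven. The mean log2 signal over the 30 meningeal genes was 8.50, 7.64, 8.03 and 7.33 in the 4 SHR SON arrays and 7.14 to 7.63 in the WKY SON arrays, whereas all PVN arrays lay between 5.09 and 5.36. SHR SON arrays 1, 2 and 3 thus lay above every WKY SON array and array 4 among them. The median was 0.22 without SON SHR array 1 and 0.56 without SON SHR array 4. For the mural list the SHR SON arrays had 6.87, 6.28, 6.62 and 5.99, the WKY SON arrays had 6.21, 6.12, 5.35, 5.99 and 5.97, and the median was 0.25 and 0.62 without the same arrays. The 2 lists were highest in the same SHR SON arrays. Genes of the blood vessel lining stood otherwise: of 17 endothelial markers 7 were positive, with a median of -0.15. That median ran from -0.23 without SON SHR array 1 to -0.047 without SON SHR array 2, and was -0.048 without SON SHR array 4. The amount of meningeal or vessel-wall tissue in each SON sample was not measured, and its part in the interactions was not tested.

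Microglial and oligodendrocyte genes followed. Of 19 microglia and macrophage genes 18 were positive (median 0.35, from 0.01 in the PVN and 0.37 in the SON). The complement genes C1qa, C1qb and C1qc and the lysozyme gene Lyz2 had an unadjusted p under 0.05, at 0.50, 0.62, 0.63 and 0.73. SON WKY array 3 had the lowest mean over this list in its group (5.78), and the median was 0.21 without it and 0.15 without it and PVN SHR array 4. Of 19 oligodendrocyte genes 17 were positive (median 0.34). Here both nuclei contributed, with -0.20 in the PVN and 0.13 in the SON, and the myelin genes Mbp and Mobp and the genes Ermn, Ugt8 and Aspa had an unadjusted p under 0.05, at 0.34, 0.61, 0.63, 0.55 and 0.56. The PVN arrays of SHR spread from 6.86 (array 4) to 7.64 (array 1) over this list, wider than the 7.29 to 7.45 of WKY, and the median without PVN SHR array 4 and SON WKY array 3 was 0.22. Of 17 astrocyte genes 12 were positive, and 0 had an unadjusted p under 0.05. Their median of 0.11 had the opposite sign in 3 of 33 settings, among them quantile normalization, and ran from -0.033 without SON SHR array 1 to 0.23 without PVN SHR array 1.

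**Figure D3:**
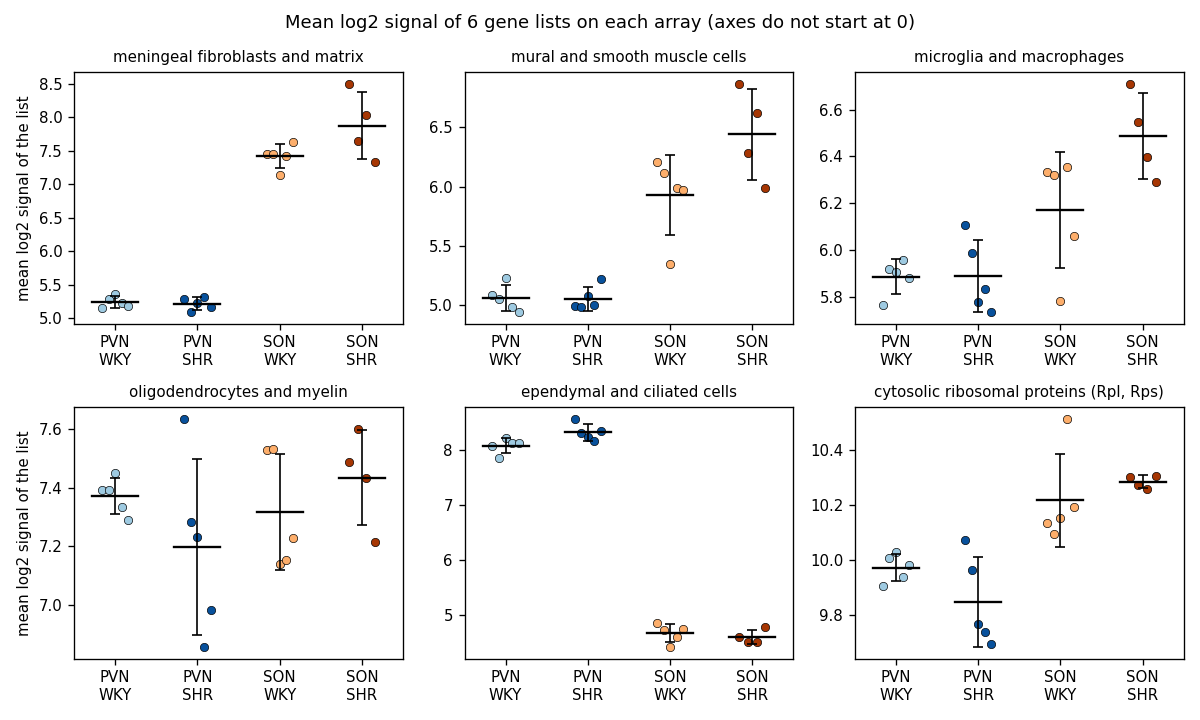
Mean log2 signal over 6 gene lists on each array, by nucleus and strain, with 1 point per array and a line at the group mean (axes do not start at 0). The meningeal means of the SHR SON arrays run from 7.33 to 8.50, and the ependymal means of the SHR PVN arrays reach 8.56 against 8.21 in WKY.

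Ependymal genes went the other way. Of the 10 measured, 2 were positive, and the median was -0.33, from 0.23 in the PVN and -0.06 in the SON. Foxj1, the transcription factor of motile cilia, had -0.46 with an unadjusted p under 0.05. The median stayed between -0.44 and -0.24 in all 33 settings. The signals of these genes were far lower in the SON, as given beside Vwa3a.

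The general neuronal and magnocellular lists had medians close to that of all genes. The 25 general neuronal genes had a median of -0.02, and 0 of them had an unadjusted p under 0.05. In the magnocellular list 7 of 18 genes were positive, with a median of -0.05 that was positive in 2 of 33 settings. The strain difference passed for 1 member in the PVN and 5 in the SON, all lower in SHR. Ucn, Nmb and Rasd1, a Ras-like protein, were the members with an unadjusted p under 0.05, at -1.88, -0.98 and -0.62. The opioid precursor Pdyn had 0.11. Ucn alone of the list passed. The 13 parvocellular genes had a median of 0.09, with Crh (-0.60), the peptide gene Adcyap1 (-0.47) and the glucocorticoid receptor Nr3c1 (0.34) at an unadjusted p under 0.05. Of the 20 genes of prohormone processing and granules 0 passed and 3 had an unadjusted p under 0.05, all negative: Furin, chromogranin A (Chga, -0.48) and Cadps2 (-0.31), which acts in the release of dense-core granules. Of the CRH and urocortin genes 4 of 7 names were measured, with a median of -0.42 that was -0.14 on the log2(value + 16) scale, and Ucn and Crh were the members with an unadjusted p under 0.05.

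Trim30d was the only member of the interferon response list that passed, with the probe set of highest signal taken for each gene. Trim14, given above, passed through a probe set near the floor. Of the 23 measured, 14 were positive and the median was 0.02, and the member with an unadjusted p under 0.05 other than Trim30d was Bst2, which tethers virus particles, at 0.48. Among the lists tied to blood pressure, the 12 genes of the renin-angiotensin system had a median of 0.03. The 14 genes of nitric oxide and arginine had -0.14 (-0.047 without SON SHR array 4 and -0.089 without PVN SHR array 1), with Ass1 of arginine synthesis (-0.70) and Ddah1 (-0.32) at an unadjusted p under 0.05. In the 17 genes of retinoic acid synthesis and binding, 13 were positive (median 0.30). The median was 0.13 with the stricter filter, 0.14 without SON SHR array 1 and 0.15 without PVN SHR array 3 or SON WKY array 3. Also, the 4 members with an unadjusted p under 0.05 were split, with Aldh1a1 and Crabp2 at 0.76 and 1.27 and Crabp1 and Rarg at -0.64 and -0.54.

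Among families taken by symbol, 44 of 47 cytosolic ribosomal proteins were positive, with a median of 0.21 from -0.17 in the PVN and 0.01 in the SON. Rpl11, Rpl21, Rpl26 and Rps15 had an unadjusted p under 0.05, with Rps15 at 0.36. Under quantile normalization the ribosomal median was 0.06. Of 86 subunits of the respiratory chain 63 were positive (median 0.09). The large families lay near 0, with medians of -0.04 over 302 solute carriers, 0.02 over 227 zinc finger proteins, -0.08 over 75 potassium channels and -0.02 over 77 peptide and amine receptors. In these, 18, 8, 6 and 10 genes had an unadjusted p under 0.05, against 6.56% of all genes. As a share, the solute carriers and zinc finger proteins lay below that value. The potassium channels and, further, the peptide and amine receptors lay above it. Collagens had a median of 0.18 over 41 genes, which was 0.092 without PVN WKY array 4 and 0.10 without SON WKY array 4.

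**Figure D4:**
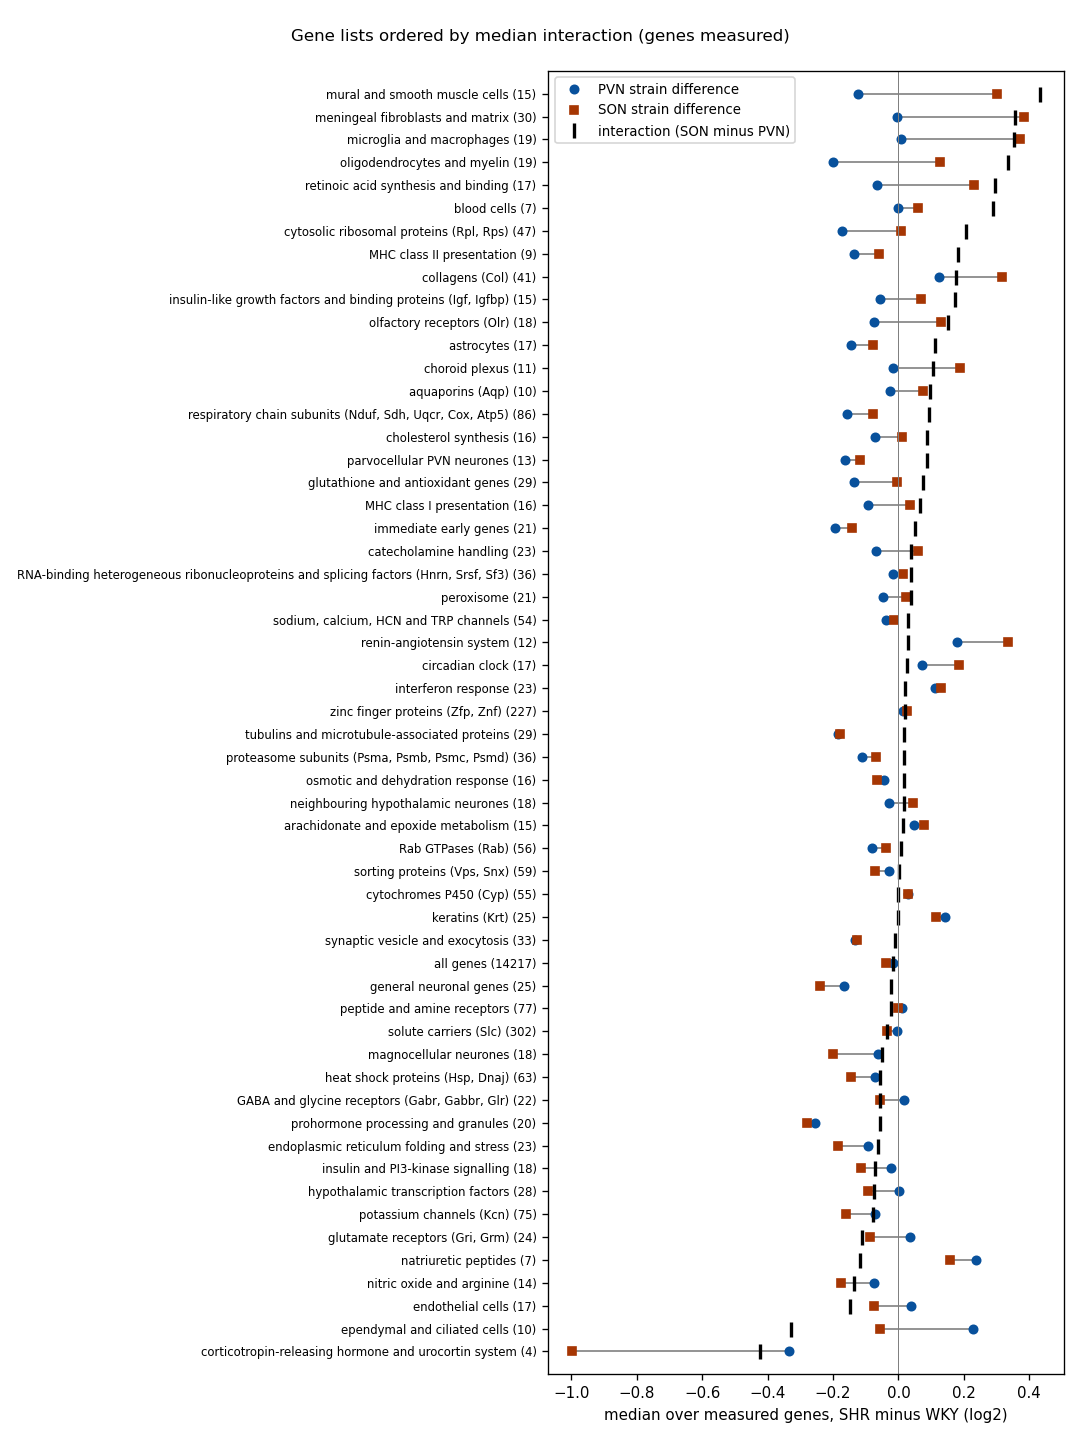
Median SHR minus WKY log2 difference over the measured genes of each of the 55 lists, in the PVN and in the SON, and the median interaction, with lists ordered by the last and the number of measured genes in brackets. Mural (0.43), meningeal (0.36), microglial (0.35) and oligodendrocyte (0.34) lists stand at the top, and the CRH and urocortin (-0.42, and -0.14 on the log2(value + 16) scale) and ependymal (-0.33) lists at the bottom.

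The spread of the interaction depended on expression level. Probe sets were put in 10 equal bins by their mean log2 signal over the 4 groups. The median interaction lay between -0.10 and 0.02 in all 10 bins. Its level across the bins depended on the arrays: without PVN SHR array 4 and SON WKY array 3 it was 0.01 in the second bin and -0.12 and -0.10 in the highest pair, and with array weights it was -0.02 in the second and -0.09 and -0.06 in that pair. The interquartile range was 0.39 in the lowest bin, where 72.6% of values lay at the floor, 0.97 in the second, and then narrowed to 0.22 in the highest (mean signal of 8.23 or more). The median standard error narrowed likewise, from 0.65 in the second bin to 0.15 in the highest. In the highest bin an interaction of -0.77 (Tpd52l1) passed, and in the second one of -2.26 (Cbr3) passed with a larger p.

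The correlation between the strain differences of the nuclei was higher in the stronger bins than in the weakest. The correlation across probe sets between the PVN and the SON strain differences was -0.01 in the lowest bin, 0.07 in the second, 0.29 in the fourth and 0.38 in the sixth, and lay between 0.47 and 0.55 in the 4 highest. The pooled value of 0.227 thus combined weak transcripts with almost no correlation and abundant ones with 0.47 to 0.55. Over the same bins the median standard error fell from 0.65 in the second to 0.15 in the highest. In the lowest bin 72.6% of values lay at the floor. Noise and the floor lower such a correlation, so its rise does not measure how alike the nuclei were. The probe sets that passed were 0, 4, 1, 1, 1, 2, 0, 1, 0 and 1 from the lowest bin to the highest. The 4 of the second bin were Trim14, Cbr3 and the pair with positive interactions. Ucn and Trim30d lay in the sixth bin and Cidea in the eighth. The share with an unadjusted p under 0.05 was 3.83% in the lowest bin and between 5.38% and 8.60% in the others. Negative values outnumbered positive ones among them most clearly in the ninth bin, with 5.12% against 1.87%.

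**Figure D5:**
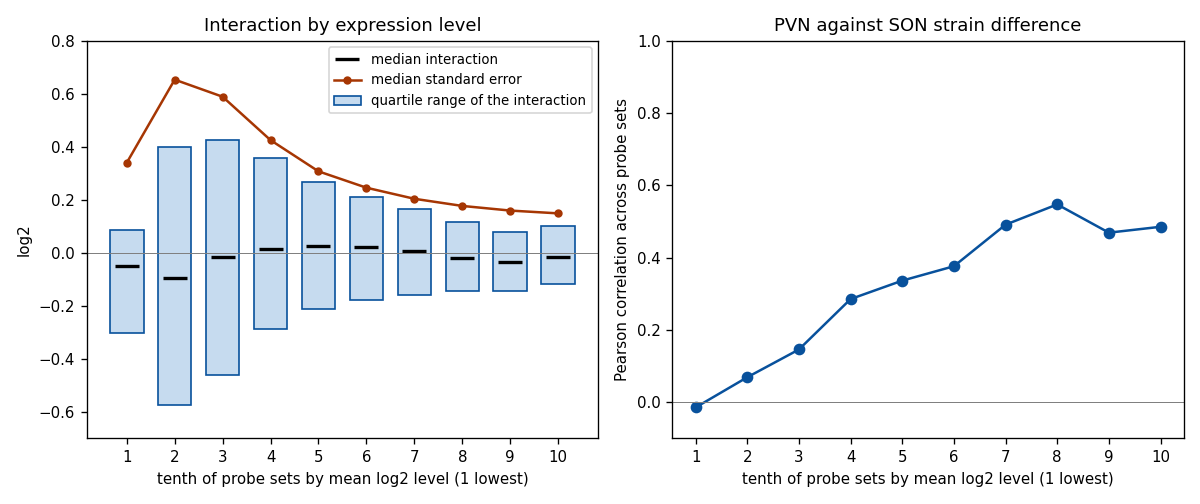
For 10 equal bins of probe sets from lowest to highest mean log2 signal, the median, interquartile range and median standard error of the interaction (left) and the correlation of the PVN and SON strain differences across probe sets (right). The median lies near 0 throughout while the correlation rises from -0.01 to 0.48 in the highest bin.

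Transcripts were also split by the nucleus in which they were stronger, a split chosen after the data had been seen. The 685 probe sets at least 2-fold higher in the SON had a median interaction of 0.24, from 0.02 in the PVN and 0.28 in the SON. Of these, 94 had a positive interaction with an unadjusted p under 0.05 (13.7%) and 23 a negative one (3.36%). Those that passed after adjustment were 4, all negative: Trim30d, Ucn, Cidea and Cbr3. They ran against the direction of most SON-enriched transcripts. The median was 0.13 without SON SHR array 1 and 0.36 without SON SHR array 4, the arrays on which the meningeal list was highest and lowest among SHR. Of PVN values 13.2% lay at the floor here, against 1.44% of SON values.

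The 667 probe sets at least 2-fold higher in the PVN had a median of -0.07, from 0.10 in the PVN and -0.01 in the SON. Negative interactions with an unadjusted p under 0.05 numbered 69 (10.3%) and positive ones 12 (1.80%), and Vwa3a and Bcl2l15 were the members that passed. The 29690 probe sets within 2-fold had a median of -0.02, with 2.53% positive and 3.62% negative at an unadjusted p under 0.05.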

How the data were processed

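The deposited table holds intensities, which the authors made as MAS 5.0 signals on a linear scale, scaled per array, from biotin-labelled cRNA after 1 round of linear amplification. The normalisation in GeneSpring and the detection calls named in the methods are not in that table. The 19 arrays were grouped by their labels, and columns of no sample numbered 0. Median signals of the arrays ran from 35.9 to 46.5, so each array was scaled to a common median. Signals under the 10th percentile of all scaled signals were set to it before log2. No filter on low signals was applied, so genes at the floor were tested too. Probe sets that bind several transcripts were kept.

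A model of 4 group means was fitted with limma 3.58.1 in R 4.3.3 (lmFit, then eBayes with a trend on the mean level), and the interaction was tested two-sided with Benjamini-Hochberg adjustment over 31042 probe sets. The study's methods compare strains within a nucleus only. Symbols came from the platform annotation, 20758 of them updated through the Entrez number to GRCr8. A single symbol was known for 20826 probe sets, several for 436 and none for 9780. Of the 55 lists, 34 hold gene names and 21 are symbol patterns, with 5 names matched through a synonym.

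The named genes are those that passed, the rest of the 12 with the smallest p in each direction, 12 genes named by the paper and strong members of lists. Further genes with an unadjusted p under 0.05 and the split by nucleus were chosen after their values were seen. The members and lists were chosen with earlier results of these data known. Alternatives covered scaling, floor, filter, moderation, array weights, the methods' t-test, replicate blocks and each array left out. The number of arrays limits the precision. The procedure was tested on simulated data. Plots were made in Python 3.11.15 (matplotlib 3.10.9). RT-qPCR, immunohistochemistry and viral gene transfer were not analysed here.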

Additional observations from a re-analysis of the deposited data

Results flagged for a closer look

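The interaction test singled out 11 probe sets at an adjusted p under 0.05 (limma). The log2 interactions were -2.50 for Trim14, -2.34 for Vwa3a, -2.26 for Cbr3, -1.99 for Trim30d, -1.88 for Ucn, -1.57 for Bcl2l15, -1.23 for Cidea and -0.77 for Tpd52l1. For the probe sets without a single symbol they were 2.36 for 1392302_at, -1.87 for 1396246_at and 2.43 for 1397923_at.

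Single arrays stood apart from the rest of their group in 16 of 144 groups examined (11.1%), over 36 named probe sets. The nominal rate of about 1 in 20 is no fair reference for this share. Many of the probe sets were chosen by a small p. In some groups, among them groups of Cbr3 and 1397923_at, all other arrays lay at the floor. Given as log2 signals, PVN WKY array 3 stood apart for Trim14 (2.82), Cbr3 (2.05) and Ephx2 (1.91, the floor), PVN WKY array 4 for Bcl2l15 (5.28) and PVN WKY array 5 for 1392302_at (3.77). In the PVN of SHR these were array 1 for Ecel1 (7.23), array 3 for Enpep (4.27), array 4 for Igf1 (5.99) and 1397923_at (2.15), and array 5 for 1392302_at (2.47). In the SON of WKY they were array 2 for Cbr3 (2.91), array 3 for Lyz2 (8.51), array 4 for Bcl2l15 (3.66) and array 5 for Npr3 (3.20). In the SON of SHR they were array 1 for Pik3r1 (6.49) and array 4 for Cbr3 (2.26).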

How the results depend on the processing

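Trim30d passed in all 33 settings, Ucn in 31 of 33 and Vwa3a in 30 of 32, while Cbr3 passed in 7 of 31. The number of probe sets that passed, 11 as reported, was 22 with the values as deposited, 33 after quantile normalization (all 11 among them), 27 with array weights, 1 with the methods' t-test over 4 groups, 6 with a fixed replicate block and 1 with a replicate block within strain. The direction of the calls stayed uneven, with 5 positive and 17 negative as deposited and 8 and 25 after quantile normalization. Of these, the number of at least 2-fold, 10 as reported, was 6 with the stricter filter, 19 with array weights, 1 with the t-test, 5 with the replicate block and 1 with the block within strain. Leaving out each array in turn gave 6 to 16 probe sets, and 6 to 15 of at least 2-fold, with 6 without PVN WKY array 1 and without SON SHR array 1 and 16 without SON SHR array 4. Deviations of SHR arrays with the same number in the PVN and the SON correlated at 0.112, 0.0297, 0.0237 and 0.0651, each array best with its own number. Those of WKY correlated from -0.0336 to -0.00082, each array best with another number. The main fit did not take equal numbers as pairs. Whether equal SHR numbers mark shared pools was not tested, and the block within strain, which treats them so, left 1 probe set. That block fits a term for each number within a strain and leaves fewer degrees of freedom. Its lower count therefore cannot tell whether equal numbers are pairs. With the same blocks taken as random, the consensus correlation within them was 0.0197. The sign turned for Avp under quantile normalization (-0.046) and for Ephx2 without PVN WKY array 3 (0.10, in a range from -0.60 to 0.10 as each array was left out). The cause was not tested. Of the 55 list medians, 34 were 0 or of the opposite sign in at least 1 setting, and no scaling or floor moved the median of all probe sets by more than 0.1. Among the weakest 10% of probe sets, 72.6% of values lie at the floor, where no interaction can be measured.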
